A study of Homo sapiens with 4 samples.

Results

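The MYC and PVT1 domain is the stretch of chromosome 8 from 127.5 to 131.5 Mb (GRCh37) that surrounds the oncogene MYC, at 128.748 to 128.754 Mb, and the long non-coding RNA gene PVT1, at 128.807 to 129.113 Mb. Its members were chosen by position alone. They are all CTCF peaks with a summit inside these limits, which came to 24 of 33868 peaks in the 4 lists and, after overlapping peaks had been merged, to 10 of 13962 regions. The lists come from chromatin immunoprecipitation followed by sequencing (ChIP-seq) of CTCF in K562, an established human erythroleukaemia line. Both groups consisted of these cells, exposed for 4 hours to 10 µM aclarubicin or to 10 µM daunorubicin, with 2 biological replicates for each drug. Untreated cells were not analysed here, so each value sets one drug against the other and holds for 1 cell line.

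CTCF is a zinc-finger protein that binds a long DNA motif and, together with cohesin, marks the ends of many chromatin loops. MYC encodes a transcription factor that drives growth and proliferation, and its promoter is served by enhancers spread over a large flanking desert with few protein-coding genes. A CTCF site close to the MYC promoter is known as a docking point for such distant enhancers. PVT1 lies next to MYC, and its promoter is known to compete with that of MYC for enhancers. In the order of the RefSeq gene table (GRCh38, used for order only), LRATD2 and POU5F1B precede MYC, and CCDC26, GSDMC, CYRIB, ASAP1 and ADCY8 follow PVT1. Aclarubicin and daunorubicin are anthracyclines, drugs that intercalate into DNA. Daunorubicin also traps topoisomerase II and breaks DNA.

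The lists held 10633 and 10711 peaks for aclarubicin and 5886 and 6638 peaks for daunorubicin. The depth in reads is unknown. A relative depth, worked out from the deposited values of the peaks with a formula that is an assumption, lay between 0.814 and 1.04 of that of aclarubicin replicate 1. Peak names were numbered without a gap in all 4 lists. For each peak the authors deposited its fold over background, with a p-value and a q-value as −log10. The fold is given below with its percentile within its own list, from 0 for the weakest to 100 for the strongest peak. A fold or a percentile describes a peak within its list, and since the lists differ in length, percentiles under the 2 drugs do not measure a change.

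The domain held 5 to 7 CTCF peaks in each library, and most lay far downstream of PVT1. Aclarubicin replicates 1 and 2 had 6 and 7 peaks there, and daunorubicin replicates 1 and 2 had 5 and 6. The groups thus shared the value of 6. The means were 6.5 ± 0.707 and 5.5 ± 0.707 peaks (SD, n = 2 each), a log2 difference of 0.24 against a pooled SD between replicates of 0.17 (exact two-sided permutation p = 0.667; the smallest p that 2 against 2 libraries can give is 0.333). Over whole lists the same difference was 0.77 on the log2 scale. In the domain it was 0 with lists of equal length and 0.55 with the domain 0.5 Mb wider on each side. The domain held 1.65% and 1.94% of the chromosome 8 peaks of the aclarubicin lists and 2.51% and 2.55% of those of the daunorubicin lists. Whether these shares depart from what the length of the domain would give, or differ between the drugs, was not tested.

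The domain was read in 3 sections: upstream of MYC, from the start of MYC to the end of PVT1, and downstream of PVT1. Upstream of MYC each library had 1 peak. Between the start of MYC and the end of PVT1 none of the 4 libraries had a peak. Downstream of PVT1 there were 5 and 6 peaks under aclarubicin and 4 and 5 under daunorubicin. A list holds only peaks past the authors' threshold, so weaker binding within MYC or PVT1 was not measurable. The outermost summits lay well inside the limits of the domain, at least 1238 kb from its start and 472 kb from its end. Outside, the nearest summits were 530 to 1056 kb below the start and 188 to 315 kb above the end.

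**Figure D1:**
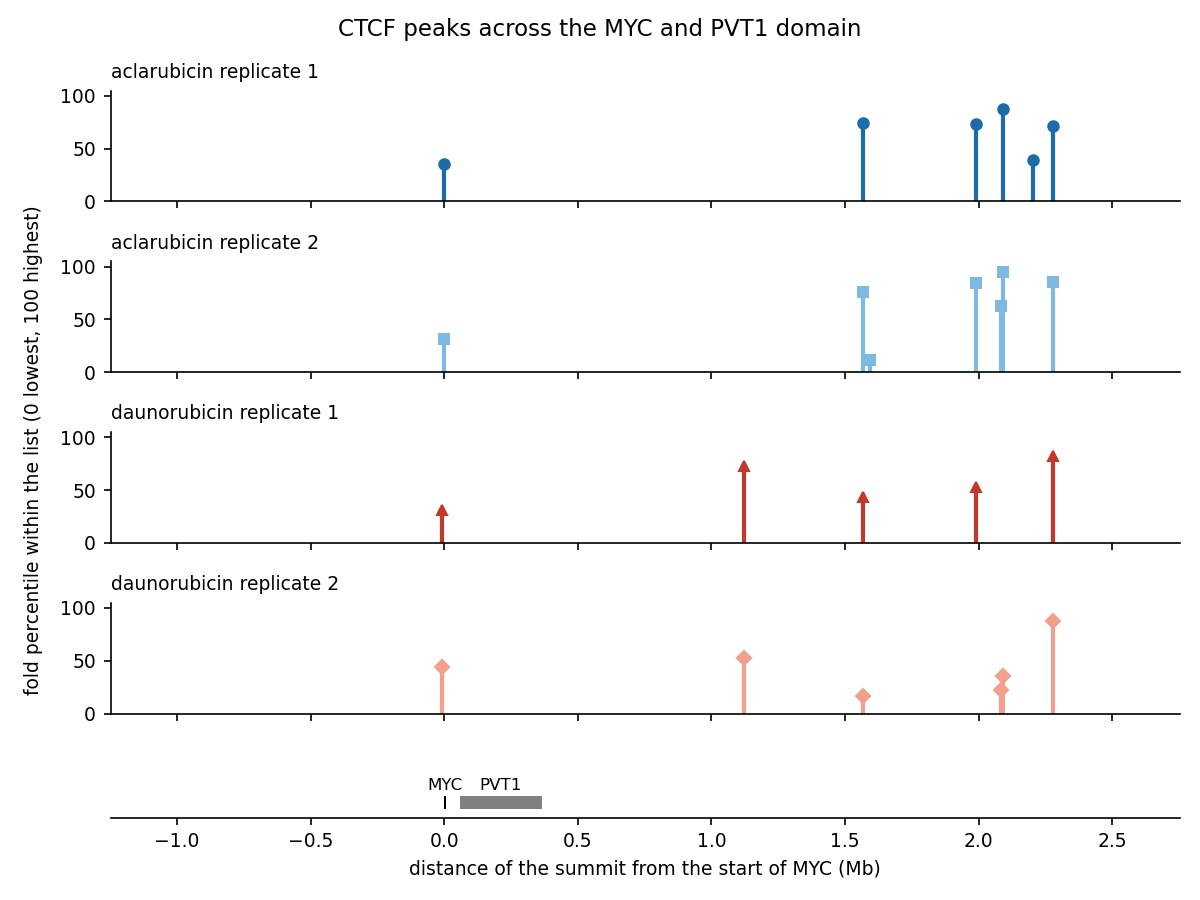
Each stem is 1 CTCF peak, placed by the distance of its summit from the start of MYC (Mb) and drawn to its fold percentile within its own list, for the 4 libraries, with MYC and PVT1 as bars. No library has a peak over MYC or PVT1, the 2 daunorubicin libraries alone have a peak 1.12 Mb downstream, and the tallest stems of all 4 libraries lie beyond 1.5 Mb, where aclarubicin replicate 2 reaches a percentile of 94.5.

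Next to MYC the drugs had different peaks. Both aclarubicin libraries had a peak just upstream of the gene, in the region chr8:128746178-128746599, whose summits lay 1.62 kb (replicate 1) and 1.67 kb (replicate 2) before the start of MYC as the rule gives it, to the nearest kb. Neither daunorubicin library had a peak there. Both daunorubicin libraries instead had a peak farther out, in chr8:128738013-128738306, with summits 9.84 kb (replicate 1) and 9.87 kb (replicate 2) before the start of MYC, and neither aclarubicin library had one there. The regions were 7.87 kb apart, and no other peak of any library lay between them or upstream of them within the domain. With each list reduced to its 5886 peaks of lowest p-value, the peak next to MYC was left in aclarubicin replicate 1 only, and the region was no longer called in both aclarubicin libraries.

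The peak nearest to MYC had a fold of 6.22 in aclarubicin replicate 1 and 5.86 in replicate 2. Its −log10 q was 21.7 and 18.4, and its fold percentile 35.1 and 31.7. It lay in the lower part of both lists by fold. About as far down stood aclarubicin-only regions in general, with a median percentile of 37.2 in replicate 1 and 37.3 in replicate 2. The peak was 337 bp wide in replicate 1 and 422 bp in replicate 2. From fold and p-value, 49 and 44 fragments were recovered over its summit, on a local background 4.07 and 3.59 times the lowest background of the list, where the median peak had 3.23 and 3.22 times.

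The daunorubicin peak farther upstream had a fold of 6.10 in replicate 1 and 7.48 in replicate 2. Its −log10 q was 10.7 and 14.3, and its percentile 31.1 and 44.6. Across all daunorubicin-only regions the median percentile was 37.9 in replicate 1 and 39.7 in replicate 2. With widths of 239 and 294 bp it was narrower than either aclarubicin peak next to MYC. Over the summit 24 and 26 fragments were recovered, with a background 1.87 and 1.92 times the lowest of the list. The summits of the replicates lay 34 bp apart, against 44 bp for the aclarubicin peak nearer to MYC.

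**Figure D2:**
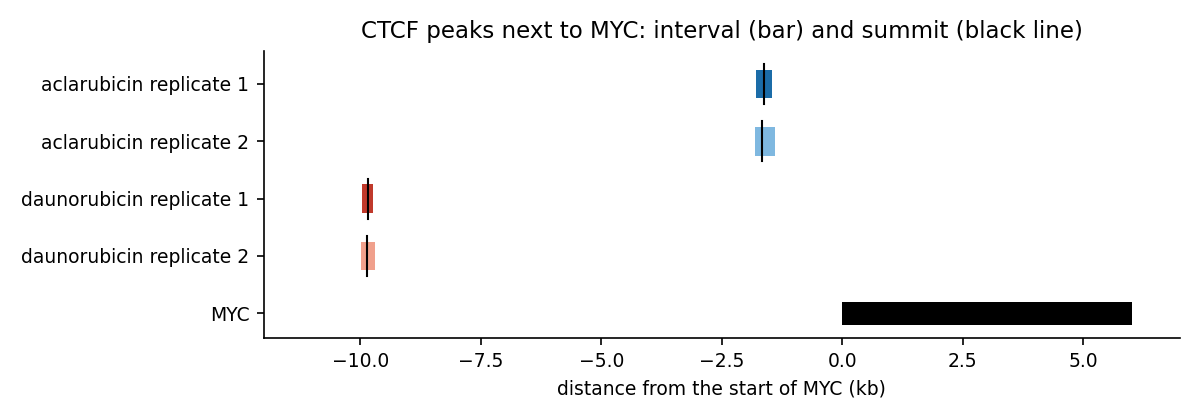
Peak intervals (bars) and summits (black lines) by distance from the start of MYC (kb), one row for each library, with MYC itself in black. The aclarubicin peaks end less than 2 kb before MYC and the daunorubicin peaks lie nearly 10 kb before it, with no overlap.

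This arrangement was looked for in all lists, a comparison chosen after the pattern at MYC had been seen. Of the 443 daunorubicin-only regions, 42 (9.48%) had an aclarubicin-only region within 10 kb, the one upstream of MYC among them. Of the 4122 regions called in all 4 libraries, 299 (7.25%) had one. The difference between these shares was not tested.

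The next peak downstream was also called under daunorubicin alone. It lay in chr8:129871442-129871754, 1124 kb from the start of MYC and 759 kb beyond the end of PVT1. In daunorubicin replicates 1 and 2 it had folds of 8.92 and 8.03, −log10 q of 16.3 and 13.4 and percentiles of 73.2 and 52.8. By fold it ranked above the median of its list in both replicates, and by p-value below it, at percentiles of 45.3 and 32.9. It was 280 and 290 bp wide, its summits were 18 bp apart, and 25 and 22 fragments were recovered over the summit. In the aclarubicin libraries nothing was called between the peak next to MYC and the one 1568 kb downstream, a distance of 1569 kb in both. In the daunorubicin libraries 1133 kb separated the peak upstream of MYC from this one. Before the peak upstream of MYC, no library had a peak within the domain, over 1246 kb under aclarubicin and 1238 kb under daunorubicin.

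By presence, 2 of the 10 regions were called in all 4 libraries, 1 in both aclarubicin and neither daunorubicin library, and 2 in both daunorubicin and neither aclarubicin library. Over all 13962 regions these classes held 29.5%, 23.8% and 3.17%. The share of daunorubicin-only regions in the domain was 20% (95% Clopper-Pearson interval 2.52% to 55.6%), and the interval includes the 3.17% of all regions. That of aclarubicin-only regions was 10% (0.253% to 44.5%), which likewise includes the 23.8%, and that of regions called in all 4 libraries, 20% with the same interval as above, includes the 29.5%. With 10 regions the intervals are wide, and whether the domain differs from the lists as a whole was not tested. These intervals treat regions as independent and cover counting error only. Seen from single libraries, 4 of 6 and 5 of 7 aclarubicin peaks had a counterpart in at least 1 daunorubicin list, against 54.5% and 55.1% in the whole lists. For daunorubicin replicates 1 and 2, 3 of 5 and 4 of 6 peaks had an aclarubicin counterpart, against 85.9% and 83.9%.

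From 1568 to 2280 kb downstream of MYC, 7 of the 10 regions lay within 712 kb, 17.8% of the length of the domain. The remaining 3 were the pair upstream of MYC and the daunorubicin-only region. In this cluster the regions at either end were called in all 4 libraries, and the 5 between them in 1 to 3.

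At the near end, chr8:130315574-130315954, the peak ranked higher by fold in the aclarubicin lists than in the daunorubicin lists. Folds were 10.3 and 10.3 in aclarubicin replicates 1 and 2 and 6.84 and 5.67 in daunorubicin replicates 1 and 2. The corresponding fold percentiles were 74.3, 75.7, 43.5 and 16.6. Under aclarubicin these were close to the medians of all regions called in all 4 libraries, 74.4 and 75.0. Under daunorubicin they were below those medians, which were themselves lower, at 60.4 in replicate 1 and 63.1 in replicate 2. By p-value the peak lay below the median of every list, at percentiles of 45.8, 46.7, 22.6 and 4.09. The aclarubicin replicates nearly coincided, whereas the daunorubicin replicates stood far apart, with mean fold percentiles of 75.0 ± 1.01 and 30.0 ± 19.0 (SD, n = 2 each). Both daunorubicin fold percentiles were below both aclarubicin ones, as in 51.3% of the 4122 regions called in all 4 libraries. The peak was 377 and 375 bp wide under aclarubicin and 269 and 238 bp under daunorubicin. Both daunorubicin widths were below both aclarubicin widths, as in 67.6% of those regions (exact permutation p = 0.333, two-sided). This was the more weakly covered of the 2 regions called in every library, with 27, 29, 21 and 13 fragments over the summit and a background 1.00 to 1.34 times the lowest of the list. Its summits spread over 77 bp, against a median of 34 bp over all regions called in all 4 libraries.

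At the far end, chr8:131027321-131027874, the peak was strong in every library. Folds were 9.90 and 11.9 in aclarubicin replicates 1 and 2 and 9.88 and 11.7 in daunorubicin replicates 1 and 2, and −log10 q was 52.4, 85.3, 52.7 and 59.9. Fold percentiles were 71.6, 85.2, 82.7 and 87.9, so by fold the groups overlapped. Ranked by p-value within lists of unlike length the groups were apart, with percentiles of 78.7, 89.5, 92.0 and 93.4 in the same order. The −log10 q values themselves overlapped. In how many regions called in all 4 libraries the p-value percentiles are apart in this way was not counted. It was the widest peak of the domain in every library, with 478 and 502 bp under aclarubicin and 513 and 534 bp under daunorubicin. Both daunorubicin peaks were wider than both aclarubicin peaks (exact permutation p = 0.333, two-sided), which held in 3.01% of the regions called in all 4 libraries, where the median difference was -81.0 bp. Here the difference was 33.5 bp, with means of 523.5 ± 14.8 and 490.0 ± 17.0 bp (SD, n = 2 each). The summits lay within 37 bp of one another. The background was 4.33 to 5.04 times the lowest of the list in all 4 libraries, the highest of the domain.

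The domain peak with the highest fold under aclarubicin lay between these ends, in chr8:130838413-130838873, 2091 kb from the start of MYC. Its folds were 12.6 and 14.2 in aclarubicin replicates 1 and 2, at percentiles of 87.5 and 94.5 and ranks 1331 and 592. In daunorubicin replicate 2 its fold was 6.86, at a percentile of 35.2 and rank 4301, and in daunorubicin replicate 1 it was not called. The depth-scaled fragments over its summit numbered 75.0 and 84.5 under aclarubicin and 27.0 in the daunorubicin replicate that called it. Without a value in daunorubicin replicate 1, the spread under that drug is unknown. The region is singled out by its high aclarubicin fold, a choice that by itself favours lower values under the other drug. The difference was not tested.

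The other 4 regions of the cluster were each called in 1 to 3 libraries. In chr8:130738513-130738930, folds were 10.1 and 11.8 under aclarubicin and 7.45 in daunorubicin replicate 1, with percentiles of 73.0, 84.8 and 53.2. In chr8:130832361-130832689, folds were 8.73 in aclarubicin replicate 2 and 6.04 in daunorubicin replicate 2, at percentiles of 62.3 and 22.1. This region lay 5.72 kb before the region with the highest aclarubicin fold. The remaining regions had a peak in 1 aclarubicin library each. One, chr8:130951793-130952185, was called in replicate 1 with a fold of 6.53 and a percentile of 38.9. The other, chr8:130342718-130343061, was called in replicate 2 with a fold of 4.2, a percentile of 11.7 and 11 fragments, 1 more than the lowest number of any peak in that list. Calls thus differed between replicates of the same drug in 5 of the 10 regions (50%). Over all 13962 regions the same held for 6071 (43.5%), so such disagreement was common in the lists as a whole.

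**Figure D3:**
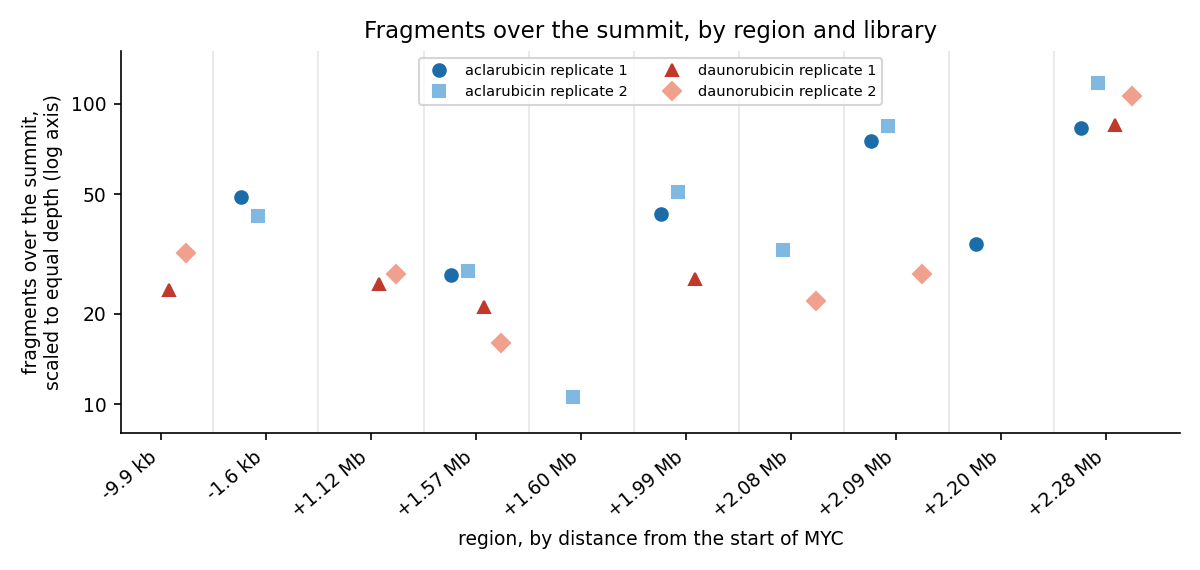
Depth-scaled fragments over the summit (log axis) for each region, by distance from the start of MYC, and each library that called it; a missing point means no call. At each region called under both drugs the daunorubicin points lie below the aclarubicin points, except at 2.28 Mb, where they overlap at 83.0 and 117 against 85.2 and 106.

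Fragments over the summit were compared between the drugs where all 4 libraries have a value. The scaling rests on the inferred relative depth. How well each library was enriched was not measured, so a ratio here does not measure binding alone. At the near end of the cluster the depth-scaled numbers were 27.0 and 27.8 under aclarubicin and 21.1 and 16.0 under daunorubicin. Both daunorubicin values were below both aclarubicin values, as in 71.6% of the 4122 regions called in all 4 libraries. A limma fit over these regions gave a daunorubicin to aclarubicin ratio of 0.669 (log2 difference -0.58 ± 0.29 SE), which did not pass the threshold (adjusted p = 0.0804 in limma). At the far end the numbers were 83.0 and 117 under aclarubicin and 85.2 and 106 under daunorubicin. This gave a ratio of 0.963 and a log2 difference of -0.06 ± 0.25 SE with a 95% interval of -0.55 to 0.44, and no difference was detected (adjusted p = 0.862 in limma).

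In that fit 55.6% of the 4122 regions had fewer fragments under daunorubicin and 2.67% had more, at an adjusted p under 0.05. The median ratio was 0.615, a log2 difference of -0.70. Against this median the near end stood 0.12 higher and the far end 0.65 higher on the log2 scale. The far end's difference ranked at the 83.2 percentile of these regions and that of the near end at the 57.9 percentile. Each library was also first centred on its median over these regions. The far end then had relatively more fragments under daunorubicin (log2 difference 0.66 ± 0.18 SE, adjusted p = 0.00146 in limma). Of these regions, 22.1% then received such a call. The near end had a centred difference of 0.13 (adjusted p = 0.745 in limma). Centring also changed the split over these regions, from 2290 lower and 110 higher to 854 lower and 909 higher. The call at the far end is thus relative to the other regions, and it was absent on the depth scale. On the depth scale the near end passed the threshold without daunorubicin replicate 1 (-0.78, adjusted p = 0.0358 in limma), a fit that leaves 1 daunorubicin library and assumes that it varies like the aclarubicin ones. With any other library left out it did not pass (adjusted p = 0.220 to 0.245 in limma). It passed on the log2 scale of the authors' fold (-0.72, adjusted p = 0.0118 in limma). Its position against the median also turned in these fits, to -0.25 without daunorubicin replicate 1 and -0.44 on the fold scale, whereas the far end stayed above the median, by 0.63 and 0.27.

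**Figure D4:**
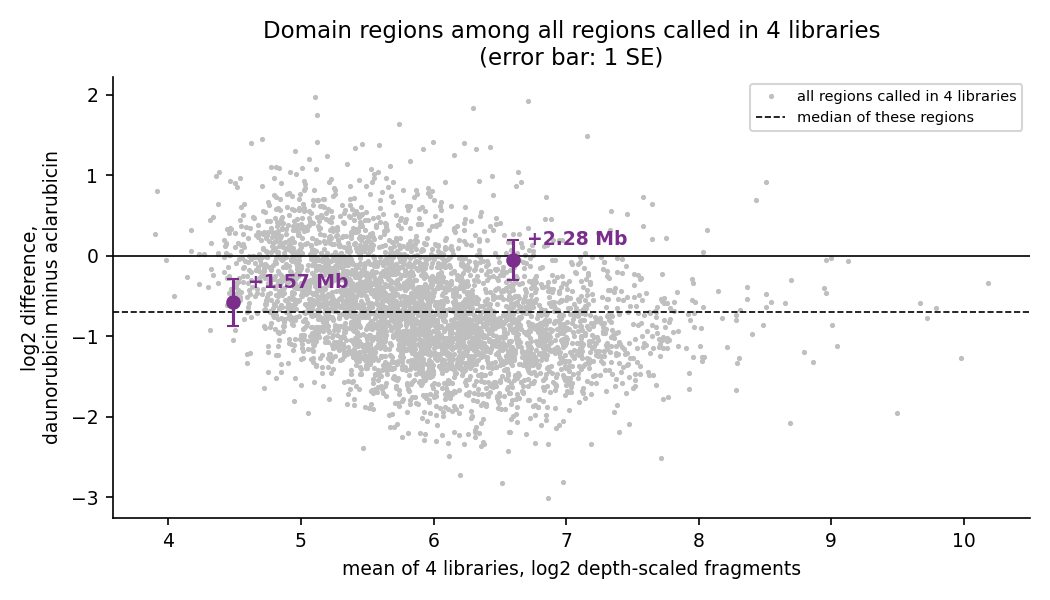
Log2 difference in depth-scaled fragments, daunorubicin minus aclarubicin, against the log2 mean of the 4 libraries, for the 4122 regions called in all of them (grey) and the 2 of the MYC and PVT1 domain (purple, labelled by distance from the start of MYC, error bar 1 SE). The dashed line is the median of -0.70; the region at 1.57 Mb lies near it and the one at 2.28 Mb lies near 0.

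Peaks of the domain were narrower under daunorubicin at every region that both drugs had, except the far end of the cluster. Narrower peaks were also common elsewhere. Both daunorubicin widths were below both aclarubicin widths in 67.6% of the 4122 regions called in all 4 libraries. Over all of these 4122 regions the median difference was -81.0 bp, daunorubicin minus aclarubicin. The median width of the domain peaks was 385 and 418 bp in the aclarubicin libraries and 269 and 292 bp in the daunorubicin libraries. The groups did not overlap, and their means of 401.5 ± 23.3 and 280.5 ± 16.3 bp (SD, n = 2 each) were 121 bp apart, with 20.1 bp as the pooled SD of replicates (two-sided exact permutation test, p = 0.333). Over whole lists this difference was 51.8 bp. These medians are over different regions in each library. At the region 1991 kb downstream, widths were 366 and 418 bp under aclarubicin and 242 bp in daunorubicin replicate 1. At the region with the highest aclarubicin fold they were 443 and 457 bp against 338 bp in daunorubicin replicate 2. The domain peaks covered 2394 and 2827 bp under aclarubicin and 1543 and 1980 bp under daunorubicin, a log2 difference of 0.57 against a pooled SD of 0.22 (exact permutation p = 0.333, two-sided). Mean widths were 399 and 404 bp under aclarubicin and 309 and 330.0 bp under daunorubicin.

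**Figure D5:**
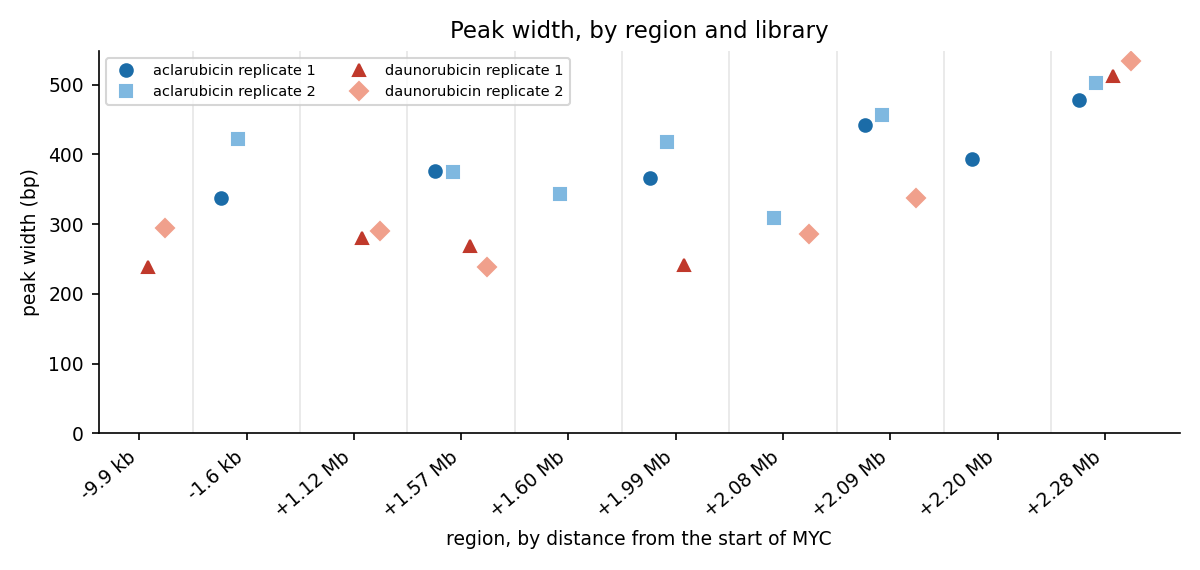
Width in bp of each domain peak by region, ordered by distance from the start of MYC, and by library, on an axis from 0. Daunorubicin peaks lie below aclarubicin peaks wherever both drugs have a peak, except at 2.28 Mb, where they reach 513 and 534 bp against 478 and 502 bp.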

How the data were processed

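Each of the 4 libraries has 1 headerless list of 10 narrowPeak columns. The submitters' processing notes name Bowtie2, Picard, bedtools and GRCh37 (hg19). The peak caller, its threshold and any control library are not given in the sources used here. The authors deposited, per peak, a fold ratio over background, a −log10 p, a −log10 q and a score, which was not used. Coordinates are 1-based, in GRCh37. Regions were made by merging intervals that share at least 1 bp (the same 13962 regions as bedtools 2.31.1). The number of fragments over the summit, k, was solved from fold = (k + 1)/(background + 1) and the Poisson probability of more than k. The formula is an assumption. Solved numbers lay within 0.02 of a whole number for 100% of peaks. Relative depth is the lowest background over the shortest peak width. Values per library were compared by an exact permutation test, which cannot fall below 0.333 here. Fragments, as log2, were fitted with limma 3.58.1 (R 4.3.3, eBayes with trend) over the 4122 regions called in all 4 libraries, with Benjamini-Hochberg adjustment over all of them. The recovery of k and the limma fit were also run on simulated data. The simulated peaks were made with the same formula, so this cannot test the formula itself. For the fit, values were drawn from a normal distribution with the spread of the aclarubicin replicates. Every region of the domain is described; those called in all 4 libraries are given in every library. The members follow from position alone, but the domain and the comparisons were chosen with earlier results of these data known. The labels call the replicates biological and tie no batch or day to a number. Same-numbered libraries did not deviate together (correlation of replicate differences -0.08 over 4122 regions), so libraries were not paired. Alternatives were stricter thresholds, lists of equal length, other overlap rules, other domain limits, other rankings and scalings, a replicate block, and each replicate left out. No genome of this build was used, so motifs and sequences were not analysed here. Python 3.11.15, numpy 2.4.6, pandas 2.3.3, scipy 1.17.1 and matplotlib 3.10.9 were used.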

Additional observations from a re-analysis of the deposited data

How the results depend on the processing

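Of 96 recomputed values, 75 kept their direction and their side of the threshold or moved little. The 2 daunorubicin-only regions stayed throughout, narrowly at a −log10 q of at least 10 (10.7 in daunorubicin replicate 1). Leaving out a replicate cannot remove them. The other counts are small and moved. Regions called in all 4 libraries fell from 2 to 1 at a −log10 q of at least 10, with lists of equal length and with the domain 0.5 Mb narrower on each side, and numbered 2 to 3 with a replicate left out. Aclarubicin-only regions changed from 1 to 0 with lists of equal length, where the peak next to MYC in aclarubicin replicate 2, at rank 6326 by p-value, no longer counted. They numbered 3 with the domain 0.5 Mb wider, and 2 with each replicate left out in turn. The log2 difference in peak number was 0 with lists of equal length, 0.42 at a −log10 q of at least 10, 0.55 with the domain 0.5 Mb wider and 0.11 to 0.37 with a replicate left out. That in covered length was 0.31 with lists of equal length and 0.82 with the wider domain, and lay between 0.39 and 0.75 with a replicate left out. That in median width was 102.5 bp with the wider domain and 104.5 to 137.5 bp with a replicate left out. The replicate block kept these 3 differences at 0.24, 0.57 and 121 bp by construction (smallest paired sign-flip p 0.5). The block left the fragment differences at -0.58 (adjusted p = 0.106 in limma) and -0.06 (adjusted p = 0.875) and changed no call.

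Over all 4122 regions called in all 4 libraries, the median daunorubicin minus aclarubicin percentile difference was -9.95 points. Over the 2 of them in the domain it was -19.0 points, from -45.0 at the near end and 6.90 at the far end of the cluster. It reversed to 6.90 with the wider domain, was -45.0 with the narrower one and -3.44 when ranked among regions called in all 4 libraries, and lay between -55.8 and -15.3 with a replicate left out. It rests on 1 to 3 regions. At the near end the log2 fragment difference reversed to 0.13 after centring, was -0.72 on the fold scale and lay between -0.78 and -0.38 with a replicate left out. At the far end it reversed to 0.66 after centring and to 0.020 when scaled by the lowest background, and lay between -0.30 and 0.19 with a replicate left out. Its sign is thus undetermined on the depth scale (0.19 without aclarubicin replicate 2, 0.10 without daunorubicin replicate 1). Over the 4122 regions called in all 4 libraries, calls of fewer fragments under daunorubicin numbered 2290, but 854 after centring and 1193 on the fold scale. The lists limit all results to called peaks: how far below the threshold an uncalled region lay is unknown.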
